A study of Homo sapiens with 4 samples.

Results

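The genes described here encode the eukaryotic translation initiation factors, eIF1 to eIF6, in an oral squamous carcinoma cell line with and without added REEP6. Members were taken by name: every gene of the deposited tables whose symbol starts with EIF1 to EIF6, without the eIF2 kinases (EIF2AK genes) and without symbols that end in P and digits, which are mostly pseudogenes. This gave 52 of the 51103 genes listed, of which 45 were tested. The test covered the 13077 genes with an FPKM of 1 or more in 2 or more libraries of the 4. FPKM counts fragments per kilobase of transcript, scaled to the library's mapped fragments, and is a level that can be compared between genes. The length used here is that of all annotated exons of a gene together, so FPKM understates genes whose transcripts in use are much shorter. Of the 7 genes not tested, EIF4E1B had no count in any library, and EIF4E3, EIF5AL1, EIF2S3B, EIF1AY and the antisense genes EIF1AX-AS1 and EIF1B-AS1 did not meet this minimum.

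The study measured polyA RNA from SCC-15 cells in 2 groups of 2 libraries: REEP6 overexpression, brought about by a lentivirus, and a negative control named NC in the labels. REEP6 is a membrane protein of the endoplasmic reticulum. Cells were harvested after 48 hours. The sources used here do not give the control construct, the promoter that drives REEP6, or whether the libraries of a group came from separate cultures, so p-values measure the spread between these libraries only. Total counts ranged from 12856256 to 15208629 a library. REEP6 itself had counts of 348 and 468 in the control and 649 and 680 in the overexpressing libraries, a log2 fold change of 0.82. Of 8 marker genes of squamous epithelium fixed for this check, 7 (KRT5, KRT14, KRT6A, KRT17, TP63, SFN and CDH1) stayed at or under 0.173 FPKM in every library. The other, the broader epithelial marker EPCAM, had 0.957 and 1.36 FPKM in the control and 1.83 and 2.36 with REEP6 (log2 fold change 0.87, edgeR adjusted p = 0.0549). The keratins and TP63 that define squamous epithelium were thus nearly absent from cells labelled as a squamous carcinoma line. Markers of endothelium, leukocytes and melanocytes were all below 1 FPKM. A list of 6 fibroblast markers summed to 35.5 and 33.4 FPKM in the control and 17.0 and 16.8 in the REEP6 libraries. Most of this sum was COL3A1, with 25.2 and 22.1 FPKM in the control and 14.5 and 13.9 with REEP6. LUM, POSTN and PDGFRB were also lower with REEP6, whereas DCN and THY1 stayed at or under 0.0127 FPKM in every library. The part of these differences in the results below was not tested, and in bulk RNA fewer cells of a type and less RNA per cell cannot be told apart.

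Initiation is the step at which a ribosome is brought to an mRNA and placed on its start codon. eIF2, loaded with GTP and the initiator tRNA, joins the small ribosomal subunit together with eIF1, eIF1A, eIF3 and eIF5. The eIF4 group binds the cap at the 5′ end of the mRNA and unwinds the leader, and eIF5B then joins the large subunit. eIF2B recharges eIF2 with GTP, and its inhibition by phosphorylated eIF2 is the switch of the integrated stress response. Many mRNAs of the translation machinery begin with a C followed by a run of pyrimidines, the 5′ terminal oligopyrimidine (TOP) tract, which the mTOR pathway uses to control their translation.

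The mRNA start of several members has this form. The first windows below show it for called members and for EIF2S3 and EIF4B, which were not called. Each window holds 30 bases of the transcript strand from RefSeq (GRCh38.p14), with the first 5 bases from the annotated start in capitals.
EIF3F, chr11:7987327-7987356, plus strand: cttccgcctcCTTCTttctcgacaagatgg
EIF3K, chr19:38619178-38619207, plus strand: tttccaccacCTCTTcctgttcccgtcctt
EIF3M, chr11:32583821-32583850, plus strand: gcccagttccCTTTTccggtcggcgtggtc
EIF4A2, chr3:186783567-186783596, plus strand: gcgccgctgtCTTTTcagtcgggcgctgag
EIF2S3, chrX:24054946-24054975, plus strand: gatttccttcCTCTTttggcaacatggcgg
EIF4B, chr12:53006446-53006475, plus strand: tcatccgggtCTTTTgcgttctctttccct
The next windows are of called members whose start lacks the tract.
EIF4H, chr7:74174346-74174375, plus strand: ctcgctcaccCTGGTtcctctcggagcgga
EIF2S1, chr14:67360318-67360347, plus strand: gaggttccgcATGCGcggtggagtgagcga
EIF5B, chr2:99337379-99337408, plus strand: ctgagaactcACACCatatgtgtcctgttc

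A tract was counted where the base at the annotated start was C and the 4 bases after it were each C or T, read on the transcript strand only. RefSeq starts were found for 45 of the 52 members, and 10 of these genes had a start with the tract, 22.2% against 5.14% of 27305 RefSeq genes searched the same way. Those RefSeq genes were not limited to genes tested in these cells. The genes with the tract did not move one way. They included 2 of the 6 members that rose with REEP6 (EIF3F and EIF3K) and 2 of the 5 matched members that fell (EIF3M and EIF4A2). Another 5 were among the 27 matched members that passed no threshold (EIF2A, EIF2D, EIF2S3, EIF3D and EIF4B), and 1 was not tested (EIF2S3B). A match describes the letters at an annotated start and is no measure of where transcription began in these cells.

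With REEP6 overexpression, 6 initiation factor genes rose and 8 fell, and 31 of the 45 tested did not pass the threshold of an adjusted p of 0.05 (edgeR quasi-likelihood test, Benjamini-Hochberg adjustment over all genes tested). EIF1, EIF3F, EIF3K, EIF4G1, EIF4H and EIF6 were higher. EIF2S1, EIF3A, EIF3E, EIF3L, EIF3M, EIF4A1, EIF4A2 and EIF5B were lower. The 14 genes are 31.1% of the members tested, beside 25.0% of all genes tested, of which 10.9% were called higher and 14.2% lower. At a change of at least 1.5-fold, 2 members were called (EIF4A1 and EIF5B), beside 9.73% of all genes. The members' median log2 fold change was -0.07, beside -0.01 for all genes, and the median size of the change was 0.24 beside 0.26. The FPKM of the groups did not overlap for 30 members, 10 higher and 20 lower with REEP6. That count, among the 45 members tested, stands beside 63.5% of all genes tested. An exact permutation test of a single gene in this design cannot give a p under 0.333, so each call rests on the spread that the fit shares between genes. The size of the imbalance depended on scaling. When libraries were set to equal FPKM sums, the median of all genes shifted to -0.14, the calls over all genes became 661 higher and 2824 lower in place of 1422 and 1853, and 1 member was higher (EIF4G1) and 13 lower.

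**Figure D1:**
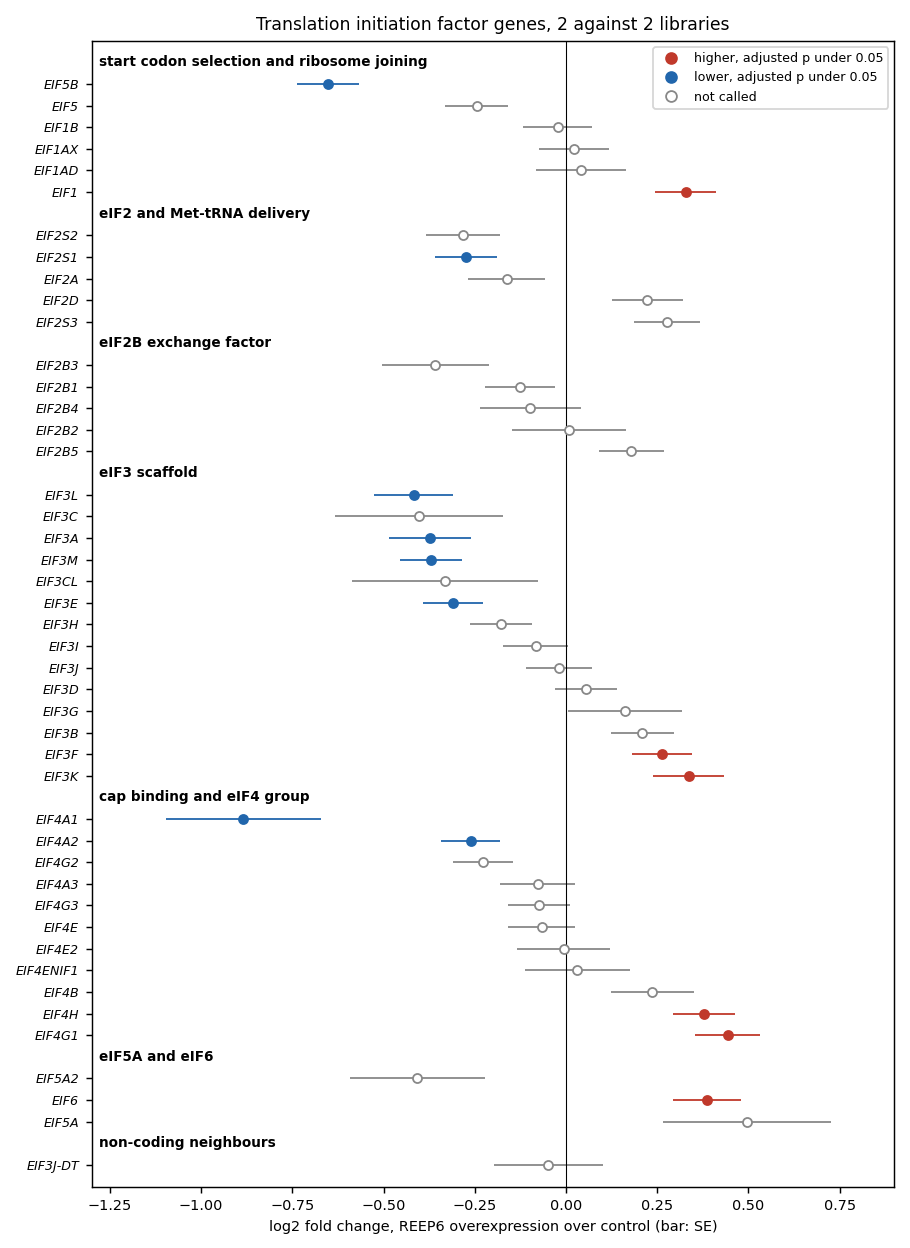
The log2 fold change of each tested initiation factor gene (REEP6 overexpression over control, 2 libraries against 2) is plotted with its standard error and grouped by role, with called genes filled. Called genes of both directions stand side by side within the eIF3 group and within the eIF4 group, and EIF4A1 (-0.88) and EIF5B (-0.65) lie farthest to the left.

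Of the factors that choose the start codon and join the subunits, EIF5B fell and EIF1 rose, and the other 4 genes tested did not pass. EIF5B encodes the GTPase that joins the large ribosomal subunit. The gene lies on chromosome 2 (99337353 to 99401326, plus strand, GRCh38). Its FPKM was 25.4 and 27.4 in the control and 16.6 and 16.4 in the REEP6 libraries. The groups lay far apart beside the gap between replicates, and counts behind these values were 2579, 3279, 1731 and 1720. EIF5B was lower by a log2 fold change of -0.65 ± 0.0853 (SE), 1.57-fold, with an edgeR adjusted p of 0.00114. It was called under all 20 alternative settings, at log2 fold changes from -0.78 to -0.41.

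EIF1 encodes the small factor that keeps the scanning ribosome open until a start codon is met. Its FPKM was 58.0 and 61.2 in the control and 71.8 and 75.1 with REEP6. Both REEP6 libraries were above both controls, and the log2 fold change was 0.33 ± 0.0829 (SE, edgeR adjusted p = 0.0190). The call ended without NC replicate 1 (adjusted p = 0.0617), without REEP6 replicate 1 (0.0589) and without REEP6 replicate 2 (0.116). EIF1B, the close paralog of EIF1, had FPKM of 23.0 and 23.0 in the control and 21.9 and 22.6 with REEP6, a log2 fold change of -0.02 (adjusted p = 0.888). The difference between the paralogs was not tested. EIF5, the GTPase-activating protein of eIF2, had a log2 fold change of -0.25 (edgeR adjusted p = 0.0615), and 6 of the 20 alternatives called EIF5 lower. The value was -0.30 without NC replicate 1 and -0.16 without NC replicate 2.

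The subunits of eIF2, which carries the initiator tRNA, had fold changes of both signs. EIF2S1 encodes the alpha subunit, whose phosphorylation sets off the integrated stress response. Its FPKM was 30.5 and 28.8 in the control and 24.5 and 23.7 with REEP6, with no overlap. It fell by a log2 fold change of -0.27 ± 0.0844 (SE, edgeR adjusted p = 0.0410), a call close to the threshold that was lost without any 1 of the 4 libraries (adjusted p from 0.0620 to 0.247) and in 13 of 20 alternatives in all. EIF2S3, the gamma subunit that binds GTP and the tRNA, was the most abundant of the group, with 73.6 and 83.0 FPKM in the control and 91.1 and 95.1 with REEP6. Its log2 fold change was 0.28, just outside the threshold (adjusted p = 0.0501), and 9 alternatives called it higher, among them the fit without NC replicate 2 (0.39, adjusted p = 0.0160). EIF2S2, the beta subunit, had 71.0 and 58.9 FPKM in the control and 53.4 and 51.4 with REEP6 (log2 fold change -0.28, adjusted p = 0.0711), which was -0.38 without NC replicate 2 (adjusted p = 0.0149) and -0.15 without NC replicate 1 (0.344). The ratio of EIF2S3 to EIF2S1 within a library, which no scaling of libraries alters, was 2.41 and 2.88 in the control and 3.72 and 4.02 with REEP6.

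None of the 5 genes of eIF2B, the exchange factor for eIF2, was called. EIF2B1, the most abundant, had 14.8 and 15.3 FPKM in the control and 14.0 and 13.1 with REEP6. Fold changes of the 5 genes ran from -0.36 (EIF2B3, adjusted p = 0.101) to 0.18 (EIF2B5) on the log2 scale, and 1 of them had an unadjusted p under 0.05. EIF2B genes were low next to eIF2, with mean FPKM from 4.42 to 14.3.

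In eIF3, the large scaffold that holds the small subunit and the mRNA together, 4 subunit genes fell, 2 rose and 8 were not called. EIF3A encodes the largest core subunit. Its FPKM was 69.6 and 57.1 in the control and 51.2 and 44.7 with REEP6, and the gap between the controls was wider than that between the nearest libraries of the groups. The log2 fold change was -0.37 ± 0.113 (SE, edgeR adjusted p = 0.0383), and the call ended without NC replicate 1 (-0.23, adjusted p = 0.159) and without REEP6 replicate 2 (-0.27, 0.175). EIF3M, a PCI-domain subunit of the core, had 34.9 and 32.1 FPKM in the control and 25.8 and 25.1 with REEP6. These groups were well apart (log2 fold change -0.37 ± 0.0853, adjusted p = 0.0130), and without REEP6 replicate 2 the adjusted p was 0.0786.

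EIF3E, another PCI-domain subunit, was among the most abundant members, with 113 and 118 FPKM in the control and 90.0 and 92.6 with REEP6. Its groups did not overlap, and the log2 fold change was -0.31 ± 0.0817 (SE, edgeR adjusted p = 0.0226). The call ended without NC replicate 2 (adjusted p = 0.115), REEP6 replicate 1 (0.140) or REEP6 replicate 2 (0.0956). EIF3L, which pairs with EIF3K in the complex, had 45.2 and 53.4 FPKM in the control and 33.6 and 38.9 with REEP6. It fell by -0.42 ± 0.108 on the log2 scale (adjusted p = 0.0210), and the call ended without NC replicate 2 (-0.26, adjusted p = 0.102) or REEP6 replicate 1 (-0.32, 0.104). In GENCODE 29, 41.1% of the exon bases of EIF3L lie in exons of other genes on the same strand, so part of its reads may have been left out or given to a neighbour.

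The subunit genes that rose were EIF3K and EIF3F. EIF3K, a small subunit and the partner of EIF3L, had 95.1 and 95.0 FPKM in the control and 107 and 128 with REEP6. The controls were almost equal and the REEP6 libraries were apart from each other. The log2 fold change was 0.34 ± 0.0975 (SE, edgeR adjusted p = 0.0326), and without REEP6 replicate 2 it was 0.21 (adjusted p = 0.314). EIF3F rose 1.20-fold (adjusted p = 0.0410), and its call ended without NC replicate 1 (0.121), REEP6 replicate 1 (0.246) or REEP6 replicate 2 (0.134). The ratio of EIF3K to EIF3E was 0.843 and 0.806 in the control libraries and 1.19 and 1.39 in the REEP6 libraries, so the order of their listed levels differed between the groups. EIF3K is richer in GC than EIF3E (54.4% against 38.5%), and with a GC correction neither gene was called and the gap between their log2 fold changes went from 0.65 to 0.25. EIF3C had 5.89 and 4.40 FPKM in the control and 4.83 and 2.79 with REEP6 (log2 fold change -0.40, adjusted p = 0.230), a value that moved from -0.86 without REEP6 replicate 1 (adjusted p = 0.000178) to -0.18 without NC replicate 1 (0.574) and -0.0546 without REEP6 replicate 2 (0.866). EIF3C and EIF3CL are near-identical copies that share reads, so their values are uncertain. EIF3CL, also uncalled, had a log2 fold change of -0.33 (edgeR adjusted p = 0.375). The uncalled subunits other than EIF3C and EIF3CL ranged from a log2 fold change of -0.18 (EIF3H) to 0.21 (EIF3B).

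**Figure D2:**
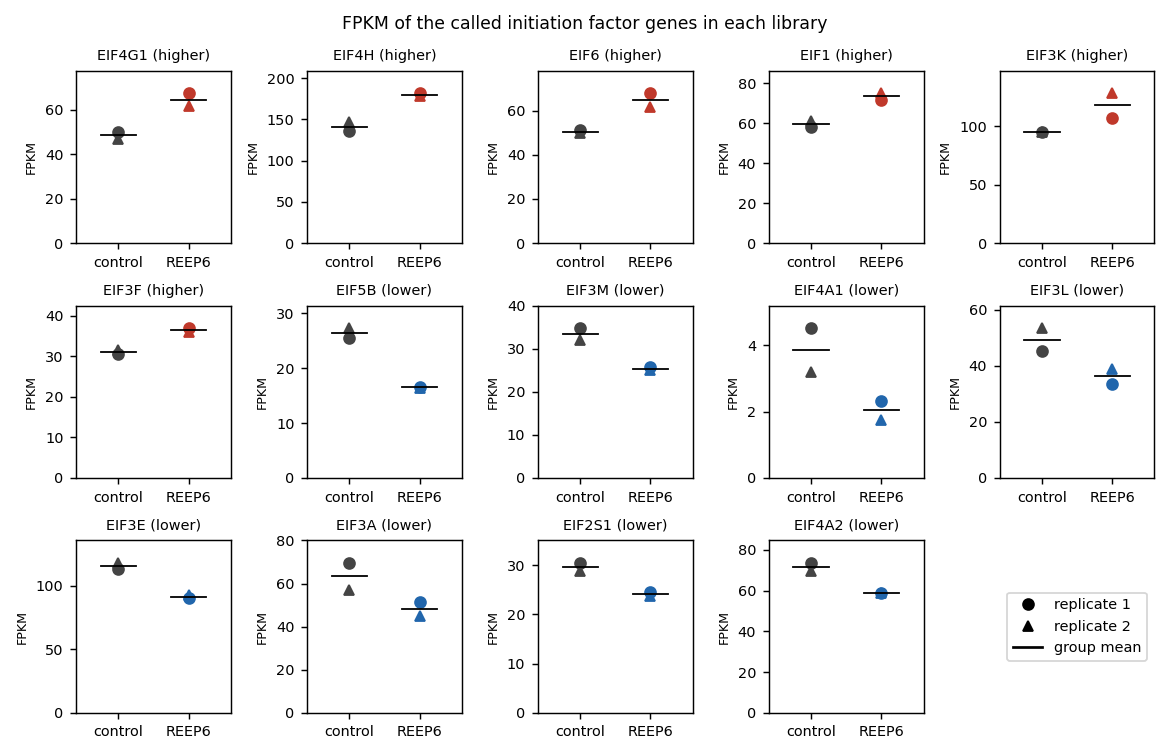
FPKM of the 14 called initiation factor genes is plotted for each library, with circles for replicate 1, triangles for replicate 2 and a line at the group mean, on axes that start at 0. The groups do not overlap in any panel, and in EIF3A, EIF4A1 and EIF3L the controls lie farther from each other than the nearest libraries of the groups do.

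In the eIF4 group, which recruits the ribosome to capped mRNA, the scaffold EIF4G1 and the helicase cofactor EIF4H rose and both classical helicase genes fell. EIF4G1 binds the cap-binding protein, the helicase eIF4A and eIF3. It lies on chromosome 3 (184314495 to 184335358, plus strand). EIF4G1 had 50.1 and 46.7 FPKM in the control and 67.5 and 61.6 with REEP6, from counts of 5321 to 7375. The groups lay apart by more than the replicates did (log2 fold change 0.44 ± 0.0889, SE, edgeR adjusted p = 0.00723). EIF4G1 was called under all 20 alternative settings, with log2 fold changes from 0.31 to 0.52.

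The paralogs of EIF4G1 did not pass. EIF4G2, which lacks the cap-binding region and serves cap-independent initiation, had 114 and 117 FPKM in the control and 94.1 and 99.2 with REEP6 (log2 fold change -0.23, edgeR adjusted p = 0.0704). In 4 of the 20 alternatives EIF4G2 was called lower. EIF4G3 had a log2 fold change of -0.07 (adjusted p = 0.566). The ratio of EIF4G1 to EIF4G2 within a library was 0.441 and 0.399 in the control and 0.717 and 0.621 with REEP6, 1.59 times as high on average. EIF4E, the cap-binding protein itself, was listed low throughout, with 4.33 and 4.22 FPKM in the control and 4.07 and 3.94 with REEP6 (log2 fold change -0.07, adjusted p = 0.636). The length behind its FPKM is 14067 bases, beside 3191 for EIF4H, so its listed level may be understated.

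EIF4H, which stimulates the helicase, was the most abundant eIF4 gene, with 136 and 147 FPKM in the control and 182 and 179 with REEP6. It rose by 0.38 ± 0.085 on the log2 scale (SE, edgeR adjusted p = 0.0116), and without REEP6 replicate 1 the adjusted p was 0.0542. EIF4B, a related cofactor, had 136 and 113 FPKM in the control and 155 and 132 with REEP6, groups that overlapped (log2 fold change 0.24, adjusted p = 0.158), and the value ranged from 0.11 without REEP6 replicate 1 (adjusted p = 0.660) to 0.37 without NC replicate 1 (0.0369).

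EIF4A1, the main DEAD-box helicase of initiation, had the largest fold change of the members, from the low level at which it is listed. Its FPKM was 4.52 and 3.19 in the control and 2.33 and 1.75 with REEP6, from counts of 309, 258, 164 and 124. Replicates differed within both groups, yet the groups did not overlap. The log2 fold change was -0.88 ± 0.212 (SE), 1.85-fold, with an edgeR adjusted p of 0.0152. It stayed called without any 1 of the 4 libraries, and limma on log2(FPKM + 1) gave an adjusted p of 0.0680. In GENCODE 29, 48.6% of the exon bases of EIF4A1 are shared with the read-through gene SENP3-EIF4A1, with AC016876.2 and with SNORD10. Counts summed over EIF4A1, SENP3-EIF4A1 and AC016876.2 were 325 and 281 in the control and 176 and 131 with REEP6. How reads that match more than 1 gene were counted is not stated in the sources used here, so the listed level may be a small share of the EIF4A1 reads. EIF4A2, the second helicase gene, fell 1.20-fold (adjusted p = 0.0419), a call lost without any 1 of the 4 libraries (adjusted p from 0.0783 to 0.211). EIF4A3, the paralog in the exon junction complex, had a log2 fold change of -0.08 (adjusted p = 0.620).

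EIF6, which keeps the ribosomal subunits apart until the large one is mature, rose. Its FPKM was 51.2 and 49.8 in the control and 68.0 and 61.5 with REEP6. The groups were separate (log2 fold change 0.39 ± 0.0926, SE, edgeR adjusted p = 0.0153), and without REEP6 replicate 1 the adjusted p was 0.134. The ratio of EIF6 to EIF5B, whose products act against and for subunit joining, was 2.01 and 1.82 in the control libraries and 4.10 and 3.75 in the REEP6 libraries. EIF5A, which carries hypusine and helps the ribosome through difficult peptide bonds, was the most abundant member. Its FPKM was 174 and 102 in the control and 227 and 154 with REEP6. Both replicate 1 libraries were high and the groups overlapped. The log2 fold change of 0.50 ± 0.23 (SE) had an edgeR adjusted p of 0.143. An edgeR fit with a replicate block called EIF5A higher (0.51, adjusted p = 8.2e-18), though the labels do not say that replicate numbers pair libraries. The fit without a filter also called it (0.52, 5.26e-07). In 16 of the 20 alternatives EIF5A was not called. Without NC replicate 1 the gene passed at 0.92 (adjusted p = 0.000468) and without REEP6 replicate 2 at 0.75 (3.51e-06). Without NC replicate 2 the log2 fold change was 0.19 (0.432) and without REEP6 replicate 1 it was 0.18 (0.402). EIF5A2, its paralog, had 1.71 and 1.96 FPKM in the control and 1.36 and 1.36 with REEP6 (log2 fold change -0.41, adjusted p = 0.135). The non-coding neighbour EIF3J-DT had a log2 fold change of -0.05 (adjusted p = 0.846).

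**Figure D3:**
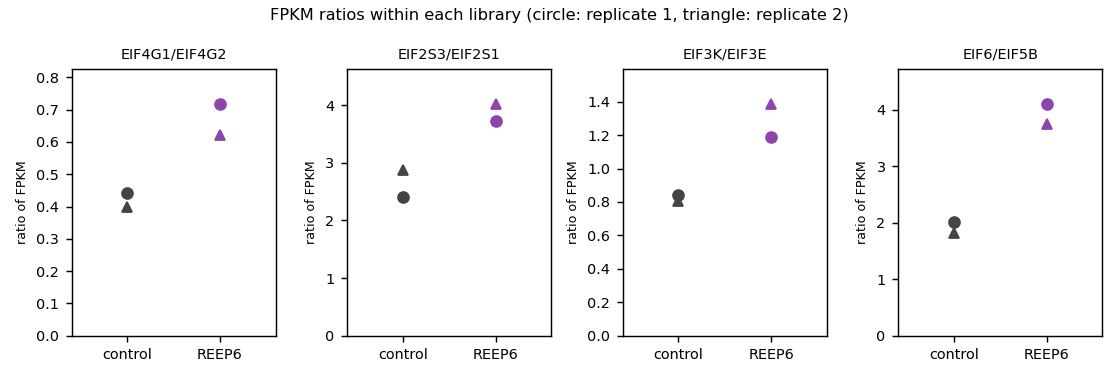
The ratio of the FPKM of 2 initiation factor genes is plotted within each library for 4 pairs chosen after their values were seen, with circles for replicate 1 and triangles for replicate 2. All REEP6 libraries lie above all control libraries in each panel, and the mean ratio was 1.46 to 2.05 times that of the control. In each pair the FPKM of the upper gene was higher, and that of the lower gene lower, in both REEP6 libraries than in both controls. The separation of the ratios was thus fixed by the choice of pairs.

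The direction of a member's change went along with the GC content of its transcripts. Members that rose had a median GC content of 52.8%, members that fell 40.5% and the others 48.6%. The same order held over all genes tested, at 55.1%, 42.2% and 49.2%. Spearman's rho between GC content and log2 fold change was 0.45 across the 45 members and 0.34 across all 13077 genes, points that share the same 4 libraries. With a correction of each library for GC content, 6 members were higher (EIF1, EIF1AX, EIF2S3, EIF3F, EIF4G1 and EIF4H) and 3 lower (EIF3L, EIF4A1 and EIF5B), of which 7 were also called without it. Calls over all genes also dropped with this correction, from 3275 to 2322, or from 25.0% to 17.8% of those tested. The calls of EIF3K, EIF6, EIF2S1, EIF3A, EIF3E, EIF3M and EIF4A2 ended. Log2 fold changes close to 0 were left for EIF3E (-0.31 before and -0.0286 after, adjusted p = 0.831), EIF2S1 (-0.27 and -0.0148, 0.932) and EIF4A2 (-0.26 and -0.0598, 0.657). Larger parts were left for EIF3A (-0.37 and -0.29, adjusted p = 0.111), EIF6 (0.39 and 0.25, 0.0719), EIF3K (0.34 and 0.22, 0.168) and EIF3M (-0.37 and -0.14, 0.318). EIF5B remained called at a smaller size (-0.65 and -0.41, 0.0102). The gap between the log2 fold changes of the other genes set in ratio also narrowed, from 1.04 to 0.66 for EIF6 and EIF5B, from 0.67 to 0.45 for EIF4G1 and EIF4G2 and from 0.55 to 0.45 for EIF2S3 and EIF2S1. Whether the relation to GC content came from library preparation or from the cells was not tested.

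**Figure D4:**
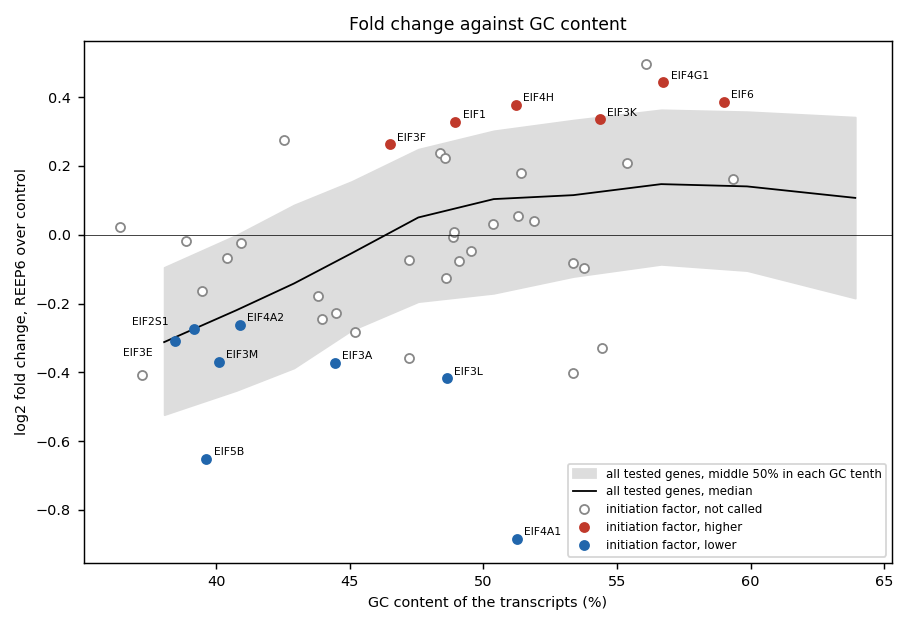
The log2 fold change of each tested initiation factor gene is plotted against the GC content of its transcripts, over the median and middle 50% of all tested genes in 10 bins of GC content with equal numbers of genes. EIF3E, EIF2S1 and EIF4A2 lie close to the median of genes of like GC content, whereas EIF5B, EIF3A, EIF3L and EIF4A1 lie below the middle 50%, and EIF4G1, EIF4H and EIF6 are among those above it.

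Of the 14 calls, those of EIF4G1 and EIF5B held under all 20 alternative settings. EIF4A1 was called in all settings that tested it but the limma fits on log2(FPKM + pseudocount), and it was not tested at a minimum of 5 FPKM. The limma fit with a pseudocount of 1 called 1 member higher (EIF4G1) and 3 lower (EIF3E, EIF3M and EIF5B), and 33.3% of its 1906 calls over all genes were higher, in place of 43.4%. No call of a member changed direction under any of the settings.

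**Figure D5:**
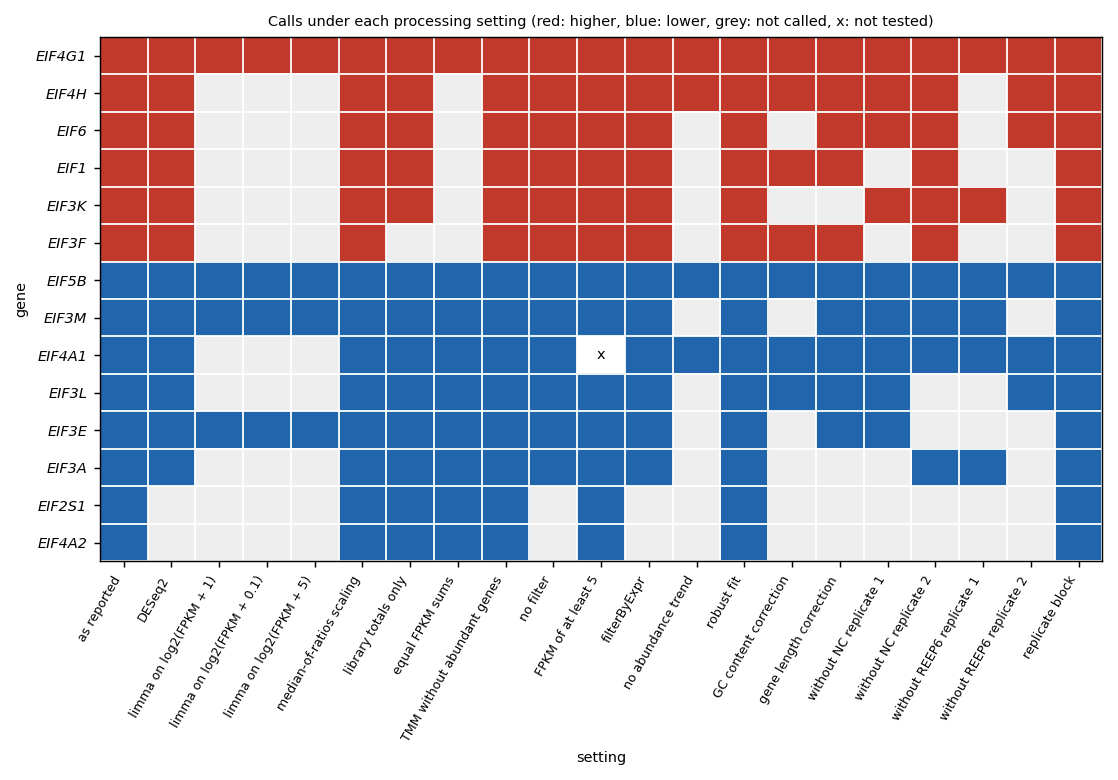
Calls of the 14 genes are shown for the reported fit and for the 20 alternatives, red for higher, blue for lower, grey for not called and x for not tested. The rows of EIF4G1 and EIF5B are filled throughout, while EIF2S1 and EIF4A2 are grey in 13 of the 20 alternatives.

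Genes that regulate or assist initiation were taken from a separate list of 28, all tested, of which 6 rose, 5 fell and 17 were not called. The called genes were 39.3% of the list, beside 25.0% of all genes (10.9% higher and 14.2% lower), and the median log2 fold change was 0.07, beside -0.01. EIF4EBP1, whose product holds eIF4E away from eIF4G when it is not phosphorylated, had 40.2 and 40.6 FPKM in the control and 60.9 and 53.9 with REEP6 (log2 fold change 0.54, edgeR adjusted p = 0.00574). LARP1, a repressor of TOP mRNAs, rose by 0.43 (adjusted p = 0.00706). The poly(A)-binding proteins PABPC1 (0.49, adjusted p = 0.00875) and PABPC4 (0.36, 0.0189) also rose. PDCD4, which inhibits eIF4A, had 27.9 and 22.3 FPKM in the control and 15.5 and 14.6 with REEP6 (log2 fold change -0.71, adjusted p = 0.00288). The helicase gene DDX3X fell with it (-0.60, adjusted p = 0.00158), as did RPS6KB1, the S6 kinase (-0.41, 0.0312). DHPS, the first enzyme of hypusine synthesis on eIF5A, was listed at 2.82 and 1.14 FPKM in the control and 0.855 and 0.500 with REEP6 (log2 fold change -1.50, adjusted p = 0.0387). Its call and its size rested on NC replicate 1, without which the value was -0.72 (adjusted p = 0.243). Leaving out NC replicate 1 (adjusted p = 0.0604) or REEP6 replicate 2 (0.13) ended the call of PABPC4, and leaving out any 1 library that of RPS6KB1 (0.0562 to 0.139). The GC correction also ended both calls, at 0.29 for PABPC4 (adjusted p = 0.0556) and -0.21 for RPS6KB1 (0.234). EIF4EBP1, LARP1, DDX3X and PDCD4 were called under all 20 alternatives.

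Factors that act after initiation also moved both ways. Of 15 genes of elongation, termination and recycling, 14 were tested, 2 rose and 3 fell (35.7% called, beside 25.0% of all genes, median log2 fold change -0.03). EEF1G is listed at 0 in every library. How reads that match more than 1 gene were counted is not stated in the sources used here, so this need not mean absence. The elongation factor 1A paralogs went in opposite directions. EEF1A2 had 115 and 104 FPKM in the control and 199 and 168 with REEP6 (log2 fold change 0.77, edgeR adjusted p = 0.00131), and was called under all 20 alternatives. EEF1A1 had 2563 and 2468 FPKM in the control and 1906 and 1886 with REEP6 (-0.38, adjusted p = 0.0139). The translocase gene EEF2 rose by 0.45 (adjusted p = 0.008). The recycling factor ABCE1 (-0.28, adjusted p = 0.0372) and the rescue factor HBS1L (-0.31, 0.0413) fell. With the GC correction both calls ended, at -0.0185 for ABCE1 (adjusted p = 0.903) and -0.0718 for HBS1L (0.618). Without 1 library at a time, adjusted p ranged from 0.0584 to 0.0856 for EEF1A1 and from 0.0553 to 0.225 for ABCE1, it was 0.0634 for EEF2 without REEP6 replicate 1, and HBS1L was lost without NC replicate 2 (0.211), REEP6 replicate 1 (0.108) or REEP6 replicate 2 (0.191). EEF1A1 has many processed pseudogenes, so its count is uncertain.

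Of 9 factors of mitochondrial translation, all tested, 2 fell and 0 rose (edgeR, with 3 of 9 at an unadjusted p under 0.05 and a median log2 fold change of -0.13). The 22.2% called stand close to the 25.0% of all genes. MTIF2, the mitochondrial initiation factor that is the counterpart of eIF5B in bringing the subunits together, had 22.0 and 23.0 FPKM in the control and 15.3 and 14.2 with REEP6. The groups were far apart (log2 fold change -0.58, adjusted p = 0.00288), and MTIF2 was called under all 20 alternatives. GFM2, which splits the mitochondrial ribosome after termination, fell by a log2 fold change of -0.42 (adjusted p = 0.0132), and the call ended without REEP6 replicate 2 (adjusted p = 0.0752) and with the GC correction (-0.25, 0.109).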

How the data were processed

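The authors deposited for each library a raw count and an FPKM value per Ensembl gene, per the file headers. The submitters' processing notes name HISAT2, HTSeq 0.13.5 and the build GRCh38. For the annotation, the strand setting and reads shared between genes, the authors' choice is not given in the sources used here. Gene names were those of GENCODE 29 for 51091 of 51103 genes, and the authors' FPKM lengths matched its exon unions. Exon overlaps were computed from these unions. GC content was computed over all annotated transcripts of a gene together, so exons shared by several transcripts weigh more.

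Counts were fitted in edgeR 4.0.16 (R 4.3.3) with TMM scaling, an abundance trend and the quasi-likelihood F test, 2 libraries against 2, without a replicate term. Genes needed an FPKM of at least 1 in 2 libraries, and p-values were adjusted by Benjamini-Hochberg over all 13077. The common biological coefficient of variation was 9.35%. Each standard error (SE) given here is the size of the log2 fold change divided by the square root of the F statistic. Counts of these 13077 genes were simulated with known changes in 200 of them, none among genes of the lowest counts. The fit recovered 61% of 1.5-fold and 90% of 2-fold changes, with 6 false calls. In the data 3275 genes were called, so these rates may not hold there. Alternatives included DESeq2 1.42.0 and limma 3.58.1 on log2(FPKM + 1), log2(FPKM + 0.1) and log2(FPKM + 5).

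Of 131 symbols starting with EIF1 to EIF6, 4 EIF2AK genes and 75 ending in P and digits were left out. Of the 75, 3 are genes of 4E-binding proteins, read in the list of regulators, and 35 of the 72 pseudogene rows had a count (435, 456, 453 and 566 a library). EIF1AY is Y-linked and its level is not given. Called members were given by library, the 12 with the smallest p in full, and uncalled members where they were the most abundant of their complex or paralogs of called ones. EIF2S2, EIF5, EIF3C, EIF2B3, EIF4E, EIF4B and the ratios were chosen after their values were seen. From the other lists, up to 4 genes a direction with the smallest p were named. The members and lists were chosen with earlier results of these data known.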

Additional observations from a re-analysis of the deposited data

How the results depend on the processing

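The counts of calls depended on the test and on single libraries, and no called member, and no called gene of the other lists, changed direction under any of the 20 alternatives. Over all genes, 3275 calls became 1906, 1830 and 1942 in limma with pseudocounts of 1, 0.1 and 5, and ranged from 2212 to 3119 without 1 library. Members called higher went from 6 to 1 in each limma fit, 1 with equal FPKM sums and 2 without an abundance trend, and ranged from 2 (without REEP6 replicate 1) to 7 (without NC replicate 2). Members called lower went from 8 to 3 in each limma fit, 13 with equal FPKM sums, 2 without an abundance trend and 3 with the GC correction. They ranged from 3 (without REEP6 replicate 2) to 6 (without NC replicate 1), with 5 without NC replicate 2 or REEP6 replicate 1. Calls in the lists of other translation factors went from 18 to 7 in each limma fit and ranged from 10 (without either REEP6 replicate) to 16 (without NC replicate 1), with 11 without NC replicate 2. Where 1 library was left out, the lone library of its group is assumed to vary like the other group. Small log2 fold changes of uncalled members changed sign: EIF1B to 0.18 and EIF4E to 0.15 with the GC correction, EIF4E to 0.0341 and EIF4G3 to 0.0218 with the gene length correction. Without 1 library, EIF1B ranged from -0.0393 to 0.00455, EIF3J-DT from -0.118 to 0.0468 and EIF4A3 from -0.169 to 0.0198. The cause of these moves was not tested.

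Replicate numbers are shared between the groups, and same-numbered libraries deviated together only weakly (correlation 0.27, 2 pairs), which does not establish pairs. With a replicate block, 6022 genes were called, 46.1% of all genes tested, among them 13 members higher and 15 lower. All 14 calls of the main analysis remained, which is little of a check in a fit that calls so many genes. In simulated counts of this depth, with 200 of 13077 genes changed, 61% of 1.5-fold changes were called. Smaller changes, such as those of most members, and as many changed genes as were called in the data were not simulated.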
